A study of Mus musculus with 2 samples.

Results

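The 10 genes described here encode the transcription factor NRF2 (Nfe2l2), the proteins Keap1 and Bach1 that hold it in check, 6 enzymes or enzyme subunits of the antioxidant response (Hmox1, Nqo1, Gclc, Gclm, Srxn1 and Txnrd1) and the mitochondrial superoxide dismutase Sod2. They were chosen by symbol, and all 10 were found among 55450 annotated genes present in every table. RNA was measured in 2 cultures of bone marrow-derived macrophages of C57BL/6J mice, biological replicates 1 and 2, both kept for 120 min in 100 ng/ml Lipid A, the membrane anchor of lipopolysaccharide and the ligand of Toll-like receptor 4. The libraries were of nucleoplasmic RNA depleted of ribosomal RNA, made from 1000 ng in replicate 1 and 500 ng in replicate 2, so input and replicate cannot be told apart. The labels give no sex or age for the mice and name a single donor entry for both cultures, so the spread between the libraries may be partly technical. No untreated culture was analysed here: every level below describes stimulated cells and says nothing of induction, and groups cannot be tested. In bulk RNA, fewer cells of a type and less RNA per cell cannot be told apart.

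In unstressed cells Keap1 binds NRF2 and hands it to the Cul3 ubiquitin ligase for destruction. Oxidants and electrophiles modify cysteines of Keap1, NRF2 then accumulates, pairs with small MAF proteins and binds antioxidant response elements of its target genes, while Bach1 occupies the same elements as a repressor until heme removes it. In macrophages this pathway is known for restraining inflammatory gene expression, and Sod2 is known as a gene that nuclear factor kappa B (NF-kB) switches on. RNA of the nucleus includes unfinished and unspliced transcripts, so these levels need not follow those of the mature messages or the proteins.

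Replicate 1 had 14374739 estimated counts over genes and replicate 2 had 16372797. Intervals given below cover counting error only. All 8 macrophage markers reached 1 TPM in both libraries, with a summed 1008 TPM in replicate 1 and 2252 TPM in replicate 2. Lyz2 alone held 403 and 1316 TPM of these sums. Adgre1 (219 and 168 TPM) and Mertk (81.7 and 56.7 TPM) were lower in replicate 2, and the other markers were higher. TPM is the estimated count of a transcript divided by its effective length and scaled to the same total in each library. Markers of neutrophils, T cells, B cells and erythroid cells had 2 to 52 counts per list and library, with Camp, Cd3e and Hbb-bs at 0 in both, and of these lists only Alas2 reached 1 TPM in both libraries. The 11 stromal fibroblast genes together had 5829 counts in replicate 1 and 58 in replicate 2, or 88.3 and 0.81 TPM, with 0 of 11 at 1 TPM in both. Mitochondrially encoded genes took 0.424% and 8.70% of counts. The TPM of the median gene differed by a log2 ratio of -0.58, replicate 2 over replicate 1, whereas scaling of counts by TMM left 0.02, so differences between libraries are given relative to that shift.

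The promoters of 8 members were at hand, in 10 windows because the promoter table holds 3 of the starts of Txnrd1, and the 250 bases before each start were searched on both strands. The core of the antioxidant response element was written as TGACNNNGC, the core shared by AP-1 and MAF proteins as TGANTCA, and NF-kB sites by their consensus. TGACNNNGC was found in 3 of the 10 windows, those of Nfe2l2, Gclm and the middle start of Txnrd1, against 10.2% of 32851 mouse promoters. TGANTCA was found in 1 window, that of Srxn1, which held it at 2 places, against 6.75% of promoters. The NF-kB consensus was found in 1 window, that of Sod2, against 7.25%. No match of TGANTCA overlapped one of TGACNNNGC, the only spelling of that core that was searched. The Srxn1 match nearer the start is followed by GC and reads TGAGTCAGC, which differs from TGACNNNGC by 1 letter. A window without TGACNNNGC may thus still hold another spelling of the core. These 5 windows are shown because they hold the letters tied to the pathway, with the matches in capitals (RefSeq, GRCm38.p6, 5′ to 3′ along the gene):
Nfe2l2, chr2:75704664-75704913, minus strand: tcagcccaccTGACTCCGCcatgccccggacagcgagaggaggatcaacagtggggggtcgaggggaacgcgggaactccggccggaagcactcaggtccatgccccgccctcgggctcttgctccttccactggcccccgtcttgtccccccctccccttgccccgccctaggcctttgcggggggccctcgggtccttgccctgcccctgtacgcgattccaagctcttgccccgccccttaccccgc
Gclm, chr3:122245307-122245556, plus strand: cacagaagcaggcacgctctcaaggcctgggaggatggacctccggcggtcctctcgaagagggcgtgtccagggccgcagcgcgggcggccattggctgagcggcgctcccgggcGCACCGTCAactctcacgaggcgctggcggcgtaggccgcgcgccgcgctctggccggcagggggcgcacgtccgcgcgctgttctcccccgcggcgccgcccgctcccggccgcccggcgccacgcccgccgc
Txnrd1 (middle start), chr10:82858956-82859205, plus strand: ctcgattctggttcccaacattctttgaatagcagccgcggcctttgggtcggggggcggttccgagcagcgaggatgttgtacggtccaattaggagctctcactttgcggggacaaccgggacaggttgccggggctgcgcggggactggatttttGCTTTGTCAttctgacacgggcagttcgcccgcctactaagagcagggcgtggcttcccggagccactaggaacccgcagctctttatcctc
Srxn1, chr2:152105274-152105523, plus strand: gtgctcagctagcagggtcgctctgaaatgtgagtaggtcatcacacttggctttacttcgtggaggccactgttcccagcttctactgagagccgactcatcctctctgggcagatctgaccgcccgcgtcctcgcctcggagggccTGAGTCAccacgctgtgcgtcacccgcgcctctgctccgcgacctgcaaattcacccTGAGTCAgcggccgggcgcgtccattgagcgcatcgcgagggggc
Sod2, chr17:13007589-13007838, plus strand: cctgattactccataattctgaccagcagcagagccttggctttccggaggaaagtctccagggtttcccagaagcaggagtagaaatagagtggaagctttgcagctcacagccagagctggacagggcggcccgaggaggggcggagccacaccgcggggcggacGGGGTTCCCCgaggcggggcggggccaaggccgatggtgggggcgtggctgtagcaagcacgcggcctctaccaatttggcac
The matches began 240 bases before the start in Nfe2l2, 134 in Gclm, 92 in Txnrd1, 102 and 45 in Srxn1, and 83 in Sod2. In Gclm and Txnrd1 the letters stand on the opposite strand, so the printed capitals are their reverse complement. The windows of Keap1, Bach1, Nqo1 and the other two Txnrd1 starts held none of the 3 motifs, and Hmox1 and Gclc were not in the promoter table. A match is a string of letters and not a shown site of binding.

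Among the 10 members, the genes that control the response and Sod2 and Txnrd1 had abundant nuclear RNA. Most of the 6 target genes chosen as members were low. Of the 10 members, 9 reached 1 TPM or more in both libraries, against 40.5% of 21938 nuclear-encoded protein-coding genes. The exception was Nqo1. At 5 TPM 6 members remained, against 24.5% of those genes. The median over all 10 members, with Nqo1 counted, was 13.6 TPM. Protein-coding genes that passed the limit of 1 TPM in each library had a median of 9.06 TPM. That set leaves out undetected genes, so the 2 medians do not cover like sets. From high to low the means were Sod2, Bach1, Txnrd1, Nfe2l2, Keap1, Hmox1, Srxn1, Gclm, Gclc and Nqo1. The ranges of Sod2, Bach1 and Txnrd1 overlapped from each to the next, and the other 7 neighbouring pairs did not overlap between libraries. From protein-coding transcripts only, those of Keap1 (14.4 and 8.90 TPM) and Hmox1 (7.43 and 13.5 TPM) did overlap.

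**Figure D1:**
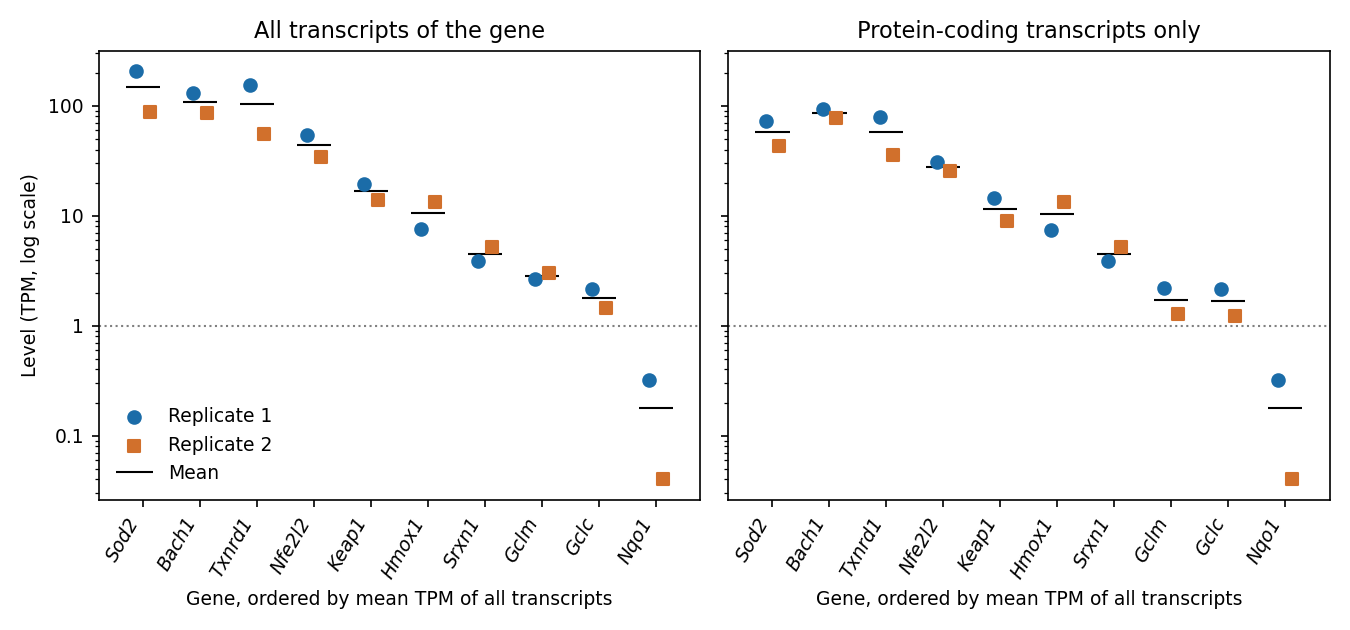
Level of each gene in TPM on a log axis, from all transcripts (left) and from protein-coding transcripts only (right), with a point per library, the mean as a bar and 1 TPM as a dotted line. Sod2 has the highest mean on the left (147 TPM) and Bach1 on the right (85.5 TPM), while Nqo1 lies below 1 TPM in both libraries.

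Bach1, the repressor of the pathway, had more nuclear RNA than the activator it opposes. Bach1 (chromosome 16, 87698945 to 87733346 in mm10, plus strand) had 8473 and 9622 counts in replicates 1 and 2, or 130.0 and 85.6 TPM, a mean of 108 ± 31.5 TPM (SD, n = 2, here and below). In each library it ranked 419th by TPM among the protein-coding genes. Nfe2l2 (chromosome 2, 75675513 to 75704641, minus strand) had 1379 and 1455 counts, or 54.0 and 34.5 TPM, a mean of 44.2 ± 13.7 TPM. Its mean was lower in the second transcript table, which was quantified straight from the reads and is called read-based here, at 27.1 TPM, and from protein-coding transcripts only, at 28.0 TPM, and that of Bach1 was 71.8 and 85.5 TPM on these scales. In the gene table Nfe2l2 stood above 86.3% of the detected protein-coding genes. The ratio of Bach1 to Nfe2l2 in TPM was 2.41 in replicate 1 and 2.48 in replicate 2, and 2.63 and 2.69 in the read-based table. That ratio thus differed little between the libraries. Both genes had a lower TPM in replicate 2, as did the median gene. Relative to the median gene, the log2 ratio of (TPM + 1) was -0.02 for Bach1 and -0.05 for Nfe2l2.

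Keap1, the adaptor that marks NRF2 for destruction, was the lowest of the control genes. Keap1 (chromosome 9, 21229730 to 21239361, minus strand) had 654 and 617 counts, or 19.6 and 13.8 TPM, a mean of 16.7 ± 4.13 TPM. Its TPM was 0.364 and 0.400 of that of Nfe2l2, but 0.704 and 0.714 of it in the read-based table. An antisense gene, Gm16754, overlaps the end of Keap1 and had 142 and 127 counts, and whether counting used strand is not given in the sources used here. Over the 6779 protein-coding genes that had at least 100 counts in each library, those nearest to Nfe2l2 in log2(TPM + 1) were Zfp62 (distance 0.0074), Arid1a (0.0188) and Eif4h (0.0459). With 2 libraries this likeness is no more than a similar level in each.

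Txnrd1 stood far above the other 5 target genes among the members. Txnrd1, the cytosolic thioredoxin reductase that keeps thioredoxin reduced (chromosome 10, 82833951 to 82897712, plus strand), had 4669 and 2911 counts, or 154 and 55.1 TPM, a mean of 104 ± 69.8 TPM. The replicate 1 value was the higher by far, and it ranked 335th and 712th among protein-coding genes. Eid3, a gene on the same strand that lies inside Txnrd1, had 858 and 359 counts, and reads of both genes cannot always be told apart. The other 5 target genes together had 436 and 870 counts, which is 16.65 and 23.1 TPM, while Txnrd1 alone had 4669 and 2911 counts.

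Hmox1 and Srxn1 were present at low to middling levels and were higher in replicate 2. Hmox1, heme oxygenase 1, which breaks down heme and is the best known Bach1 target (chromosome 8, 75093621 to 75100589, plus strand), had 143 and 387 counts, or 7.63 and 13.5 TPM, a mean of 10.55 ± 4.13 TPM. In replicate 2 it came close to Keap1 (13.8 TPM), while in replicate 1 it stood well below it. From protein-coding transcripts only, Hmox1 had 7.43 and 13.5 TPM and Keap1 14.4 and 8.90 TPM. On that scale Hmox1 was thus the higher of the pair in replicate 2. Srxn1, sulfiredoxin, which repairs overoxidised peroxiredoxins (chromosome 2, 152105516 to 152111376, plus strand), had 142 and 285 counts, or 3.89 and 5.17 TPM, a mean of 4.53 ± 0.905 TPM. It stood above 29.2% of the detected protein-coding genes, and Hmox1 above 54.3%. The read-based table gave lower means, 6.50 TPM for Hmox1 and 2.97 TPM for Srxn1.

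The subunits of glutamate-cysteine ligase, the enzyme of the first step of glutathione synthesis, lay just above the detection limit. The modifier subunit gene Gclm (chromosome 3, 122245557 to 122270732, plus strand) had 48 and 112 counts (95% Poisson intervals 35.4 to 63.6 and 92.2 to 135), or 2.66 and 2.99 TPM. The catalytic subunit gene Gclc (chromosome 9, 77754535 to 77794485, plus strand) had 97 and 85 counts (78.7 to 118 and 67.9 to 105), or 2.15 and 1.46 TPM. Gclm therefore exceeded Gclc by 1.24 times in replicate 1 and 2.05 times in replicate 2 on the TPM scale. The read-based table gave Gclm 212 and 255 counts and a ratio to Gclc of 0.952 and 1.71, so which subunit led in replicate 1 depends on the table. From protein-coding transcripts only, Gclm had 2.19 and 1.27 TPM and Gclc 2.15 and 1.23 TPM, which are nearly equal. A processed pseudogene, Gm6061, and a gene on the other strand, Gm17494, overlap Gclm, with 0 and 0.84 counts and with 15.7 and 15.9 counts.

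Nqo1, the quinone reductase often used as a readout of NRF2, had almost no nuclear RNA here. Nqo1 (chromosome 8, 107388225 to 107403206, minus strand) had 6 counts in replicate 1 (95% Poisson interval 2.20 to 13.1) and 1 in replicate 2 (0.0253 to 5.57), or 0.320 and 0.0400 TPM. These intervals overlap. The read-based table gave 18 counts in replicate 1 (10.7 to 28.4) and 2 in replicate 2 (0.242 to 7.22), whose intervals do not overlap. Both tables thus had fewer counts in replicate 2, though all these counts are small. Whether such intervals overlap is no test of a difference, and the counts are not scaled for depth.

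Sod2 had the highest TPM of the 10 genes in both libraries, although much of that value rests on a short transcript. Sod2, which turns superoxide into hydrogen peroxide in mitochondria (chromosome 17, 13006846 to 13040063, plus strand), had 6555 and 5761 counts, or 207 and 87.3 TPM, a mean of 147 ± 84.5 TPM. Sod2-203, an annotated transcript of 334 bases in the class retained_intron, took 47.8% and 29.4% of the gene's TPM from 2.61% and 1.15% of its counts. Counting only protein-coding transcripts, a choice made after the values were seen, Sod2 had 73.2 and 43.3 TPM, Bach1 93.7 and 77.3 TPM, and Txnrd1 78.6 and 35.9 TPM. On that scale Bach1 was the highest of the 10 in both libraries, and in the read-based table also by the mean (48.7 TPM). In replicate 1 of the read-based table, however, Txnrd1 stood above Bach1 (57.8 against 49.6 TPM).

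Several members carried RNA assigned to transcripts that run into an intron, and most of these had less of it in replicate 2. The 10 genes have 43 annotated transcripts. A single transcript took over 50% of the gene's TPM in both libraries for 5 of the 9 detected members, against 43.5% of the protein-coding genes detected at 1 TPM in both, and for Nqo1, which has a single transcript with 6 and 1 counts. One of the 5 was Bach1-201, the only protein-coding transcript of Bach1, with 72.1% of TPM in replicate 1 and 90.3% in replicate 2. The remainder was Bach1-203, a transcript that ends 312 bases into the last of the 4 introns of Bach1-201 (intron 4, 87722609 to 87729436). It had 1020 and 351 counts, or 12.04% and 3.65% of the counts of the gene. The counts of the coding transcript went the other way, with 7453 in replicate 1 and 9271 in replicate 2.

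Nfe2l2 showed the same kind of difference. Nfe2l2-202, a processed transcript of 2 exons, holds 1321 bases of intron 1 of the coding transcript Nfe2l2-201 (75679430 to 75704363). It had 403 and 240 counts, which is 29.2% and 16.5% of the counts of the gene and 43.1% and 26.6% of its TPM. Nfe2l2-201 had 976 and 1215 counts. The read-based table gave Nfe2l2-202 a close share of counts, 31.9% and 17.95%.

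**Figure D2:**
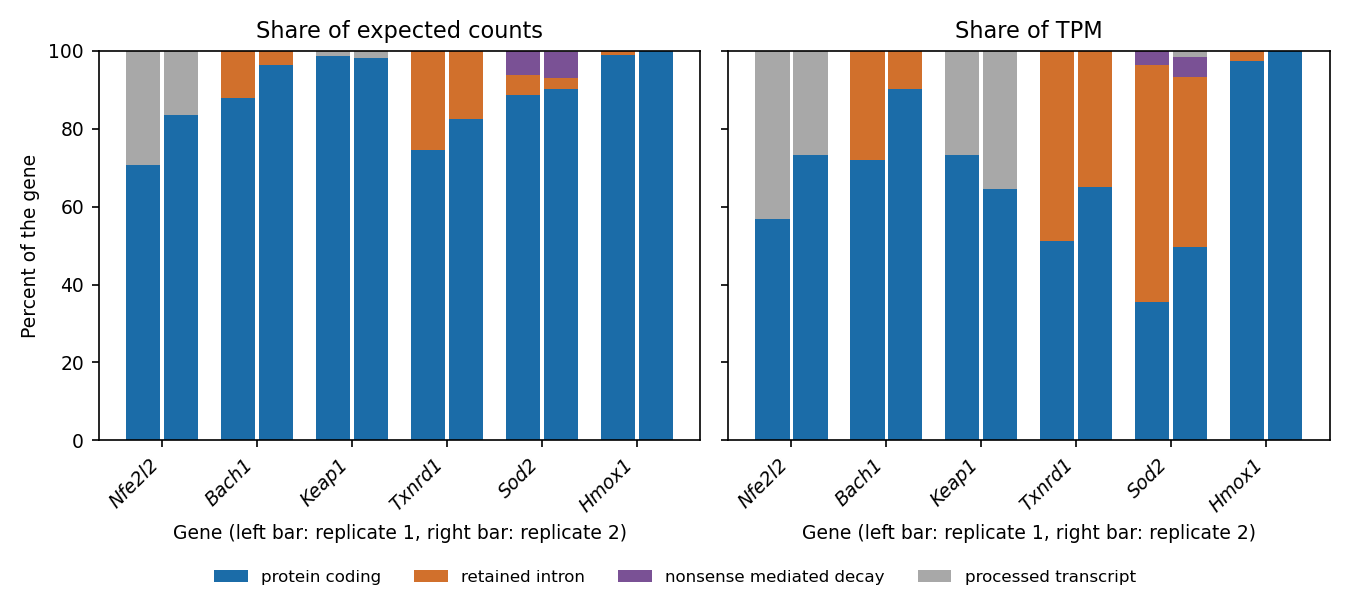
Share of each gene's expected counts (left) and TPM (right) by annotated transcript class for 6 members, with replicate 1 as the left and replicate 2 as the right bar of each pair. The protein-coding part of Bach1 counts is 88.0% in replicate 1 and 96.3% in replicate 2, and the retained-intron part of Sod2 is far larger in TPM than in counts.

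Retained-intron transcripts are annotated for 5 members, and their summed share of counts was lower in replicate 2 for 4 of them, against 74.6% of 3788 protein-coding genes at 5 TPM or more with such a transcript. The shares of counts were 25.5% and 17.6% in Txnrd1, 12.04% and 3.65% in Bach1, 4.95% and 2.93% in Sod2, and 1.10% and 0% in Hmox1, the last from 1.57 and 0 counts. Gclm went the other way, with 3.79% and 9.06%, from 1.82 and 10.2 counts. The median over the 3788 genes was 24.6% in replicate 1 and 19.6% in replicate 2, so a lower share in replicate 2 was the rule for genes at large. By share of TPM it was also 4 of the 5 members, against 72.3% of genes. Of the 3 such transcripts of Txnrd1, Txnrd1-207 holds introns 5 and 7 of Txnrd1-201 whole (82879349 to 82879749 and 82881949 to 82883913), and had 930 and 409 counts. Keap1 has no retained-intron transcript, and its processed transcript Keap1-203 of 317 bases took 26.8% and 35.6% of TPM from 8 and 11 counts. Keap1-203 holds 194 bases of intron 1 of Keap1-202. Its share of counts, 1.22% and 1.78%, was thus higher in replicate 2, though from few counts.

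Txnrd1 transcripts start at several places, and the tables divided the reads among them differently. The starts fall at 82833951 (upstream, 1 transcript), 82859179 to 82859259 (middle, 4 transcripts, whose promoter window holds TGACNNNGC), 82860301 to 82860505 (downstream, 2 transcripts) and 82886846 (internal, 1 transcript). In the alignment-based table the middle start had most counts, 42.6% in replicate 1 and 59.3% in replicate 2, the downstream start 40.2% and 20.2%, and the upstream start 15.2% and 18.8%. In the read-based table the middle start had only 20.5% and 23.0%, the upstream start 36.5% and 49.4%, and the downstream start 40.7% and 25.6%. By share of counts the tables thus differ on which start led. By share of TPM, which weights the short Txnrd1-202 heavily, the middle start led in both, with 57.5% and 65.0% in the alignment-based table and 55.4% and 42.3% in the read-based table. Both tables gave the downstream start a smaller share in replicate 2 and the upstream start a larger one. The coding transcripts Txnrd1-201 and Txnrd1-205, of the middle and the upstream start, changed places between tables, with 1650 and 708 counts in replicate 1 in the alignment-based table and 298 and 2191 in the read-based table.

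**Figure D3:**
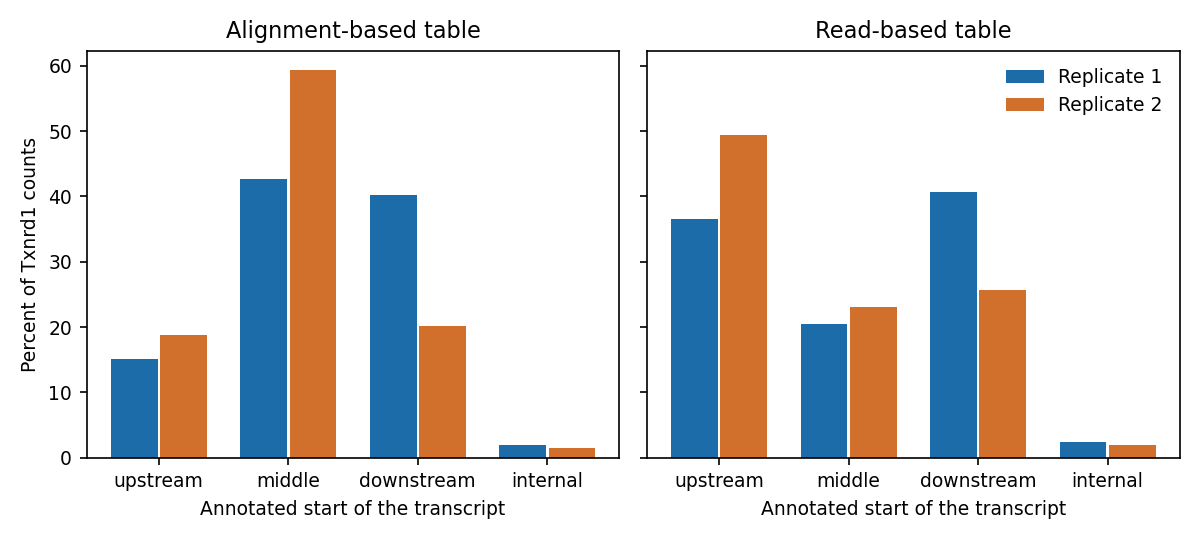
Percent of Txnrd1 counts on transcripts of each annotated start, in the alignment-based table (left) and the read-based table (right), with a bar per library. The middle start leads on the left (42.6% and 59.3%) and not on the right (20.5% and 23.0%), by share of counts.

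Between the libraries, by TPM of all transcripts, Hmox1, Srxn1 and Gclm were higher in replicate 2 than the median gene. On the same scale Txnrd1 and Sod2 were lower, and the control genes lay close to the median gene. The log2 ratio of (TPM + 1), replicate 2 over replicate 1 and relative to the median gene, was 1.33 for Hmox1, 0.92 for Srxn1 and 0.71 for Gclm. It was -0.88 for Txnrd1 and -0.65 for Sod2. These 5 kept their direction under every scaling and table tried for this ratio, but not their size. From protein-coding transcripts only, the ratio was 0.09 for Gclm and -0.16 for Sod2, against 1.36 for Hmox1, 0.92 for Srxn1 and -0.53 for Txnrd1. Among the control genes it was 0.32 for Nfe2l2, 0.31 for Bach1 and -0.05 for Keap1. Nfe2l2 and Bach1 thus lay further from the median gene on that scale than Gclm and Sod2. Among protein-coding genes averaging at least 1 TPM, 5.45% lay above 1 and 1.73% below -1, and of the members only Hmox1 lay past either limit. Of the 9 members averaging at least 1 TPM, 5 were above 0, against 55.7% of those genes, and with TMM scaling 5 were, against 59.6%, both near the background. Nqo1, below that limit, stood at 0.24 through the pseudocount of 1 although its counts were 6 and 1.

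Scaled by TMM on counts, with no pseudocount and with 95% counting intervals, the log2 ratio was 1.51 (1.23 to 1.80) for Hmox1, 1.30 (0.80 to 1.82) for Gclm and 1.08 (0.79 to 1.38) for Srxn1. It was -0.60 (-0.67 to -0.54) for Txnrd1 and -0.11 (-0.16 to -0.06) for Sod2, whose difference was thus much smaller in counts than in TPM. Bach1 stood at 0.26 (0.22 to 0.30) and Nfe2l2 at 0.16 (0.05 to 0.26) in counts but at -0.02 and -0.05 in TPM, so their direction depends on the scaling. The intervals of Keap1 (-0.17 to 0.16), Gclc (-0.55 to 0.32) and Nqo1 (-8.03 to 0.54) held 0. These intervals compare 2 libraries, which also differed in macrophage markers, in stromal RNA and in mitochondrial RNA. Relative to the median gene 8 of 8 macrophage markers were higher in replicate 2, from 0.06 for Mertk to 2.29 for Lyz2 (median log2 1.55). The part of the marker, stromal and mitochondrial differences in those of the members was not tested. In the read-based table the relative ratio of Gclm was 0.30, against 0.71 in the alignment-based table. Its read-based counts were 212 and 255, of totals of 21039284 and 27514005. As a share of all read-based counts Gclm was thus not higher in replicate 2. The counting interval of Gclm rests on its alignment-based counts of 48 and 112 alone.

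**Figure D4:**
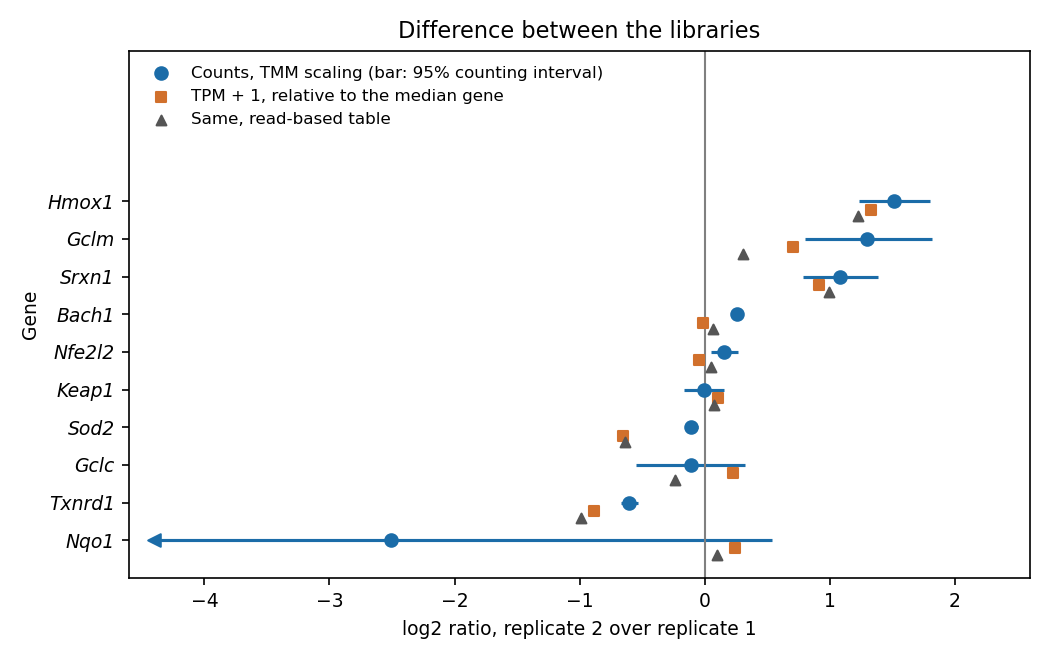
The log2 ratio of replicate 2 over replicate 1 for each gene, from counts with TMM scaling (circles, with 95% counting intervals, that of Nqo1 cut at the left edge), from TPM + 1 relative to the median gene (squares), and the same in the read-based table (triangles). Hmox1, Gclm and Srxn1 lie right of 0 on all 3 measures, and Txnrd1 and Sod2 left of it.

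The wider pathway was mostly present. Of 64 further genes in 7 lists, 49 reached 1 TPM in both libraries, against the same 40.5% of protein-coding genes, with a median of 11.7 TPM. Of the 51 that averaged at least 1 TPM, 36 were higher in replicate 2 than the median gene, against 55.7% of protein-coding genes, with a median relative log2 of 0.39. The macrophage markers stood higher in replicate 2 as well, and their part in this was not tested.

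A list of 13 genes held factors related to NRF2 or Bach1, partners of NRF2 and genes that control its stability. Of these, 10 were detected, with a median of 18.6 TPM. The highest was Sqstm1, which encodes the p62 protein that draws Keap1 into autophagy, at 158 and 180 TPM, and it was also the furthest from the median gene, at a relative log2 of 0.77. The small MAF partners Mafk, Mafg and Maff had means of 25.05, 22.3 and 10.4 TPM, and the ligase scaffold Cul3 21.2 TPM. The related factor Nfe2l1 had 37.0 and 37.7 TPM, next to 54.0 and 34.5 TPM for Nfe2l2. The blood-lineage factor Nfe2 was lowest, at 0.840 and 0.320 TPM, and Bach2 had 1.53 and 0.200 TPM.

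Glutathione genes were uneven. Of 13, 9 were detected, with a median of 12.6 TPM. Slc3a2, the heavy chain of the cystine transporter, was highest at 105 and 126 TPM, while the cystine-specific chain Slc7a11 had 10.8 and 5.14 TPM. Mgst1, a microsomal glutathione transferase, differed most, at 8.45 and 20.3 TPM and a relative log2 of 1.75. Ggt1 was at 0 counts throughout, and a count of 0 allows up to 3 per library.

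Of 12 thioredoxin and peroxiredoxin genes, 9 were detected, with a median of 7.65 TPM. Prdx1 was highest, at 76.2 and 47.5 TPM, and Sesn2 lowest, at 0.890 and 0.200 TPM. The mitochondrial thioredoxin gene Txn2 was furthest from the median gene, at a relative log2 of 1.03. The other thioredoxin reductases, Txnrd2 and Txnrd3, had means of 1.53 and 0.610 TPM, against 104 TPM for Txnrd1. Among 6 genes that supply NADPH, 5 were detected, with a median of 10.6 TPM. Pgd of the pentose phosphate pathway led them at 110.2 and 42.1 TPM, Idh1 differed most (relative log2 1.12), and Me1 was lowest at 0.370 and 0.0800 TPM.

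Among 6 genes of heme breakdown and iron, 5 were detected, with a median of 19.2 TPM. Fth1, a ferritin chain, was highest at 616 and 712 TPM, the iron exporter Slc40a1 differed most (relative log2 0.94), and Abcb6 was lowest at 0.600 and 1.03 TPM. Blvra and Blvrb, which reduce biliverdin downstream of Hmox1, had means of 6.45 and 16.0 TPM. Of 8 genes that make or remove superoxide and peroxide, 7 were detected, with a median of 41.5 TPM. Cybb, the catalytic subunit of the phagocyte NADPH oxidase, was highest at 388 and 287 TPM. Catalase (Cat) differed most, at 7.94 and 17.7 TPM and a relative log2 of 1.64, and Sod3 was lowest at 0.0400 and 0 TPM. The cytosolic dismutase Sod1 had 7.25 and 7.40 TPM, against 207 and 87.3 TPM for Sod2.

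The list of other NRF2 targets, those not placed in the lists above, was the lowest of the 7. It had a median of 1.41 TPM and 4 of 6 detected. Ugdh was highest at 26.9 and 25.9 TPM, Ephx1 differed most, at 2.26 and 3.55 TPM (relative log2 1.06), and Akr1b8 was lowest at 0.560 and 0.580 TPM.

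**Figure D5:**
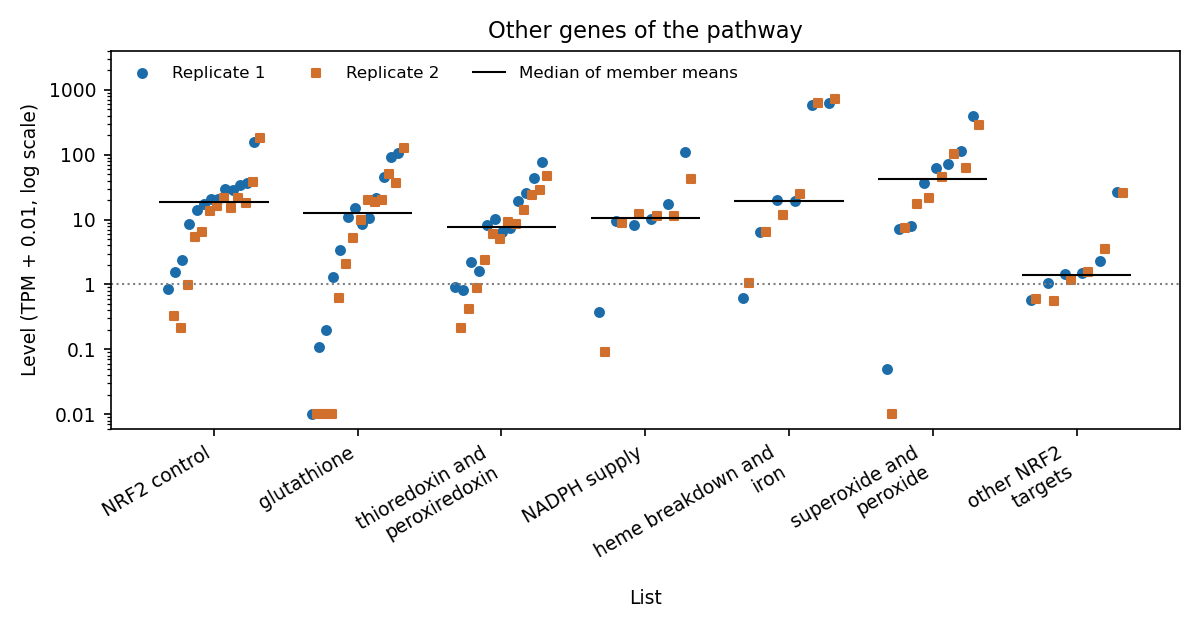
Level in TPM + 0.01 on a log axis of every gene in the 7 wider lists, with a circle for replicate 1, a square for replicate 2, a bar at the median of the gene means and a dotted line at 1 TPM. The superoxide and peroxide list has the highest median (41.5 TPM) and the list of other NRF2 targets the lowest (1.41 TPM).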

How the data were processed

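For each library the authors deposited gene and transcript tables from an alignment to the transcriptome, and a transcript table quantified from the reads, on mm10 with annotation M21 per the accompanying notes. No source used here names the tools, their versions or the use of strand; the columns have the names RSEM and kallisto use. The deposited expected counts are estimated counts and can hold fractions, per the file headers. The deposited TPM values are counts divided by effective length and scaled to the same total. The deposited FPKM values served as an alternative. Division by length gives short transcripts a large TPM from few counts.

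The 10 members and the wider lists were chosen with earlier results of these data known. Symbols were read from the read-based table and linked by gene identifier, and entries with no gene in all tables (1.45% and 0.279% of counts) were left out. With 1 group of 2 libraries there is no test; values are given per library, as mean ± SD, and as log2((TPM + 1) in replicate 2 over that in replicate 1) minus the median over genes averaging at least 1 TPM. This understates differences of low genes. TMM factors came from edgeR 4.0.16 and size factors from DESeq2 1.42.0 (R 4.3.3), on counts rounded to whole numbers. The formula of the log2 ratio was checked on simulated counts with known fold changes. These were drawn with counting error only, from a profile shared by both libraries, without gene lengths or genes below 10 counts. The check therefore does not cover the shift in TPM or genes of low counts. Counting intervals are exact Poisson for a count and conditional binomial for a ratio, at 95%. Tables were handled in pandas 2.3.3 and numpy 2.4.6 under Python 3.11.15, with intervals from scipy 1.17.1 and figures from matplotlib 3.10.9.

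Of each wider list the highest, the lowest and the most different gene are named by rule; the other wider genes were chosen after their values were seen. A transcript is the leading one by its mean share of TPM, and starts within 500 bases were joined. Alternatives were another table, unit, scaling, pseudocount, threshold or a single library.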

Additional observations from a re-analysis of the deposited data

How the results depend on the processing

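No paired analysis was possible because there is 1 group. Detection of 9 members held in the read-based table, with FPKM, with TPM rescaled over protein-coding genes, at 10 counts and in each library alone, and fell to 6 at 5 TPM. The median member level of 13.6 TPM became 12.9 in the read-based table and 15.5 with FPKM. It became 55.7 with TPM rescaled over nuclear-encoded protein-coding genes, and was 13.6 in each library alone. That equal median hides differences, as 7 members had a lower TPM in replicate 2 and 3 a higher one. The summed TPM of the members was 581 in replicate 1 and 299 in replicate 2. With no filter on low values when the median was taken, 3 members in place of 6 (Nqo1 counted) were higher in replicate 2; other settings gave 5 to 7. The 49 wider genes detected ranged from 43 at 5 TPM to 57 at 10 counts. The relative log2 ratio changed sign for 5 members: Nqo1, whose 0.24 rests on the pseudocount of 1, and the others, which lay near 0. With TMM it became 0.15 for Nfe2l2, 0.26 for Bach1, -0.0052 for Keap1, -0.37 for Nqo1 and -0.10 for Gclc. DESeq2 size factors gave 0.12, 0.23, -0.038, -0.38 and -0.12 for the same genes. A pseudocount of 0.1 gave 0.041 for Nfe2l2, 0.080 for Bach1 and -0.90 for Nqo1. The read-based table gave 0.052 for Nfe2l2, 0.071 for Bach1 and -0.24 for Gclc. With no filter Keap1 stood at -0.17, Nqo1 at -0.037 and Gclc at -0.050. The cause was not tested. The leading transcript took over 50% of TPM for 5 members in the read-based table, for 8 by counts, and for 6 and 7 in replicates 1 and 2 alone. Medians over protein-coding genes alone (6 members higher), levels from protein-coding transcripts, retained-intron shares of counts, and read-based start sites and retained-intron shares were chosen after seeing the data. Depth limits Nqo1, and in transcript shares also Gclm, Gclc and Hmox1.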
